A study of Mus musculus with 12 samples.

Results

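The forkhead family was taken as every protein-coding mouse gene whose symbol is Fox, a letter from a to s and a number, which gave 44 of the 21900 protein-coding genes in the RefSeq annotation of mm10. Chromatin accessibility was summed for each gene over the counted regions that overlapped its span or lay within 10 kb of either end. With that rule 41 of the 44 genes had at least 1 region, and all 41 passed the filter on low counts and were tested. Foxe1, a regulator of thyroid development, Foxi1, which acts in the inner ear and kidney, and Foxr1 had no region and carry no value here. The 41 genes held 277 different regions, from 1 region at Foxb2 and Foxk2 to 35 at Foxn3 and 61 at Foxp1.

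Forkhead genes encode transcription factors that share a DNA-binding domain of the winged-helix type, and several of them can bind sites within closed chromatin and are called pioneer factors for that reason. Individual members mark or build particular lineages, such as Foxd3 in the epiblast and neural crest, Foxa1 and Foxa2 in endoderm, Foxc, Foxf and Foxl1 in mesenchyme and Foxn1 in thymic epithelium. Others are known by the process they serve. Most Foxo proteins are held in the cytoplasm by AKT when insulin or growth factors signal. Foxh1 recruits Smad proteins to Nodal target genes, and Foxm1 drives mitotic genes.

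The series followed mouse embryonic fibroblasts (MEF) on their way to induced pluripotent stem cells (iPSC) by ATAC-seq, in which the transposase Tn5 inserts adapters into open DNA. The 4 groups were MEF, Stage1 (day 6), Stage2 (day 6 plus 4 further days) and established iPSC, with 3 libraries each, all of the strain background Mixed (C57BL/6 x 129). Stage1, Stage2 and iPSC cells were sorted for Oct4-GFP+, a reporter of a pluripotency gene, and MEF were unsorted, so stage and sorting cannot be told apart in any comparison with MEF. The labels place the cells in 3c enhanced reprogramming, and what 3c stands for is not given in the sources used here. Nothing in the labels says that the libraries of a group came from separate cultures, so the p-values measure only the spread between these libraries, which may be technical.

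Libraries held 14310290 to 32229388 reads, of which 1034936 to 6261903 fell within the 115000 counted regions. The share in regions was 16.7% ± 5.37 in MEF, 7.64% ± 0.415 in Stage1, 6.03% ± 0.813 in Stage2 and 4.94% ± 0.395 in iPSC (SD, n = 3 each). From the reads outside regions, an even background would account for 13.8% of the region reads in MEF, 30.6% in Stage1, 39.9% in Stage2 and 48.9% in iPSC. Levels below are CPM, the counts of a gene's regions scaled to a fixed number of reads in regions, after TMM scaling, and each gene's expected background is given in the same unit where it matters. The pluripotent marker genes summed to 1120 to 1155 CPM in Stage1, 1307 to 1391 CPM in Stage2 and 1089 to 1230 CPM in iPSC, against 268 to 286 CPM in MEF, with none of the 10 genes at 0. The 11 fibroblast marker genes summed to 331 to 380 CPM in Stage1, 372 to 429 CPM in Stage2 and 449 to 503 CPM in iPSC, against 804 to 830 CPM in MEF. Each library is a bulk sample, so fewer cells with an open region and less opening per cell cannot be told apart, and accessibility near a gene is no measure of its RNA.

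Promoters of forkhead genes are printed here to show the DNA behind the clearest contrasts: 4 that opened (Foxi3, Foxd3, Foxa2, Foxi2), 1 that lost accessibility (Foxc1) and 1 that was not called (Foxo1). Each runs from 250 bases before to 50 bases after the RefSeq start site on GRCm38.p6 (mm10), 5′ to 3′ on the gene's strand, at chr6:70956356-70956655 (+) for Foxi3, chr4:99656049-99656348 (+) for Foxd3, chr2:148045899-148046198 (-) for Foxa2, chr7:135410117-135410416 (+) for Foxi2, chr13:31806396-31806695 (+) for Foxc1 and chr3:52268087-52268386 (+) for Foxo1. Capitals mark CCAAT boxes (CCAAT) and GC boxes (GGGCGG), searched on both strands.
Foxi3: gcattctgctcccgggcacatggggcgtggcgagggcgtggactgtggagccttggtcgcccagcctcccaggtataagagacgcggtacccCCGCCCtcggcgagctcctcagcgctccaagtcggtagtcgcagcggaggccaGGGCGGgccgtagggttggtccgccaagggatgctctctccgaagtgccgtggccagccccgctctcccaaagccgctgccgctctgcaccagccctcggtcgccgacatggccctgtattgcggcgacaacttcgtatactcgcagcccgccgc
Foxd3: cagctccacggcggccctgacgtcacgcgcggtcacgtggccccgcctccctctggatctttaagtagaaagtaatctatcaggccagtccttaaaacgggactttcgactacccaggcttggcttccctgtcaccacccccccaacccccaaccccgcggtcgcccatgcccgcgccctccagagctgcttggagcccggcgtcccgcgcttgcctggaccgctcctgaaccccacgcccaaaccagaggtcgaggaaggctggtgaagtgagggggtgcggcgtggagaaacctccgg
Foxa2: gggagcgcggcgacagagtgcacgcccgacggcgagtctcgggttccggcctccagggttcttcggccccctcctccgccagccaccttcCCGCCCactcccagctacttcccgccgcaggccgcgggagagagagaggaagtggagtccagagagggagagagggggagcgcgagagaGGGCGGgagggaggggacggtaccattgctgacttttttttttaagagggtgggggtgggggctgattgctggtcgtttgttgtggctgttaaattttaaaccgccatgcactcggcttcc
Foxi2: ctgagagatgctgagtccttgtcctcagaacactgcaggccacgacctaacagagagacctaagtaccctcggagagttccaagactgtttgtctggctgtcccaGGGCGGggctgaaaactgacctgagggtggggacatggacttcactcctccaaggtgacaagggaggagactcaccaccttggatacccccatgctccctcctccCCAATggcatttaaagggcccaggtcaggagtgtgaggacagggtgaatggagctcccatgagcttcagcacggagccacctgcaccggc
Foxc1: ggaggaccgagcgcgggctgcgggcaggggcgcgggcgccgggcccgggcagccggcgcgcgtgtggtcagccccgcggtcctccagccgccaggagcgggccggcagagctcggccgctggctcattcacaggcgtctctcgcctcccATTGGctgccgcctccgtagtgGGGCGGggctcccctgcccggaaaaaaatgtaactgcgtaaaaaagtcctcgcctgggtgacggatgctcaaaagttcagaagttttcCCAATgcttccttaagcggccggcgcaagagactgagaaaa
Foxo1: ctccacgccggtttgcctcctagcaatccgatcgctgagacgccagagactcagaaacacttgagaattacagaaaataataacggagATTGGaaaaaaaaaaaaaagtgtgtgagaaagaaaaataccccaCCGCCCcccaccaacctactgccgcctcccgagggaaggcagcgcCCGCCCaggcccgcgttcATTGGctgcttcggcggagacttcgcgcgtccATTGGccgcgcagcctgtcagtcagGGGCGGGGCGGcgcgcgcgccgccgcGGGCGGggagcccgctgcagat
Of the 44 genes, 28 had a promoter entry, with 33 entries in all. A CCAAT box lay in 15 of the 33 entries (45.5%), against 37.4% of all 32851 mouse promoters of the same length, and a GC box in 24 (72.7%), against 35.7%. The forkhead core TGTTTAC was found in 1 entry, that of Foxa1 (3.03%, against 3.65% of all promoters), the AP-1 site TGAGTCA in 2, those of Foxe3 and Foxn3 (6.06%, against 5.202%), and the octamer ATGCAAAT in none, against 1.74% of all promoters. None of the 5 motifs contains another, and the Foxd3 promoter above holds none of them. A match is a description of the letters and not of a bound site. The members' promoters had a median of 22 CpG dinucleotides in 300 bases, against 7 over all promoters, with a range of 3 at Foxr2 to 59 at Foxk2.

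The first comparison, Stage1 against MEF, asks what had changed by day 6 of reprogramming, and it held more calls than either later step. Of the 41 genes, 18 were higher and 7 lower in Stage1 than in MEF by edgeR's quasi-likelihood test at a Benjamini-Hochberg adjusted p under 0.05 over all 17507 genes tested, and 16 were not called. Over all genes, 32.9% were called higher and 32% lower. The family's median log2 fold change was 0.15, against 0.00 over all genes. Between the end points, iPSC against MEF, 22 of the 41 were higher and 11 lower, against 32.9% and 32.2% of all genes, and the medians were 0.46 for the family and -0.01 for all genes. The direction depends on the scaling: with the whole library as the base, in place of the reads in regions, the median of all genes shifted to -0.96 for Stage1 against MEF and to -1.71 for iPSC against MEF. On that scale 6 members were higher and 23 lower in Stage1, against 7.53% and 69.8% of all genes, and 7 were higher and 28 lower in iPSC, against 4.48% and 86.5% of all genes. Foxi3, Foxb1, Foxr2, Foxa2, Foxd3 and Foxi2 were higher under both scalings in both comparisons, and Foxd4 in iPSC, while the other 12 members called higher in Stage1 were not called on the whole-library scale, and of the other 15 in iPSC 9 were lower and 6 not called. The family's medians on that scale were -0.81 for Stage1 and -1.24 for iPSC. The authors' list of MEF regions held no region of Foxi3, Foxb1, Foxr2, Foxd3, Foxi2 or Foxd4. Later stages alone brought those regions into the count, which partly set their direction under either scaling.

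**Figure D1:**
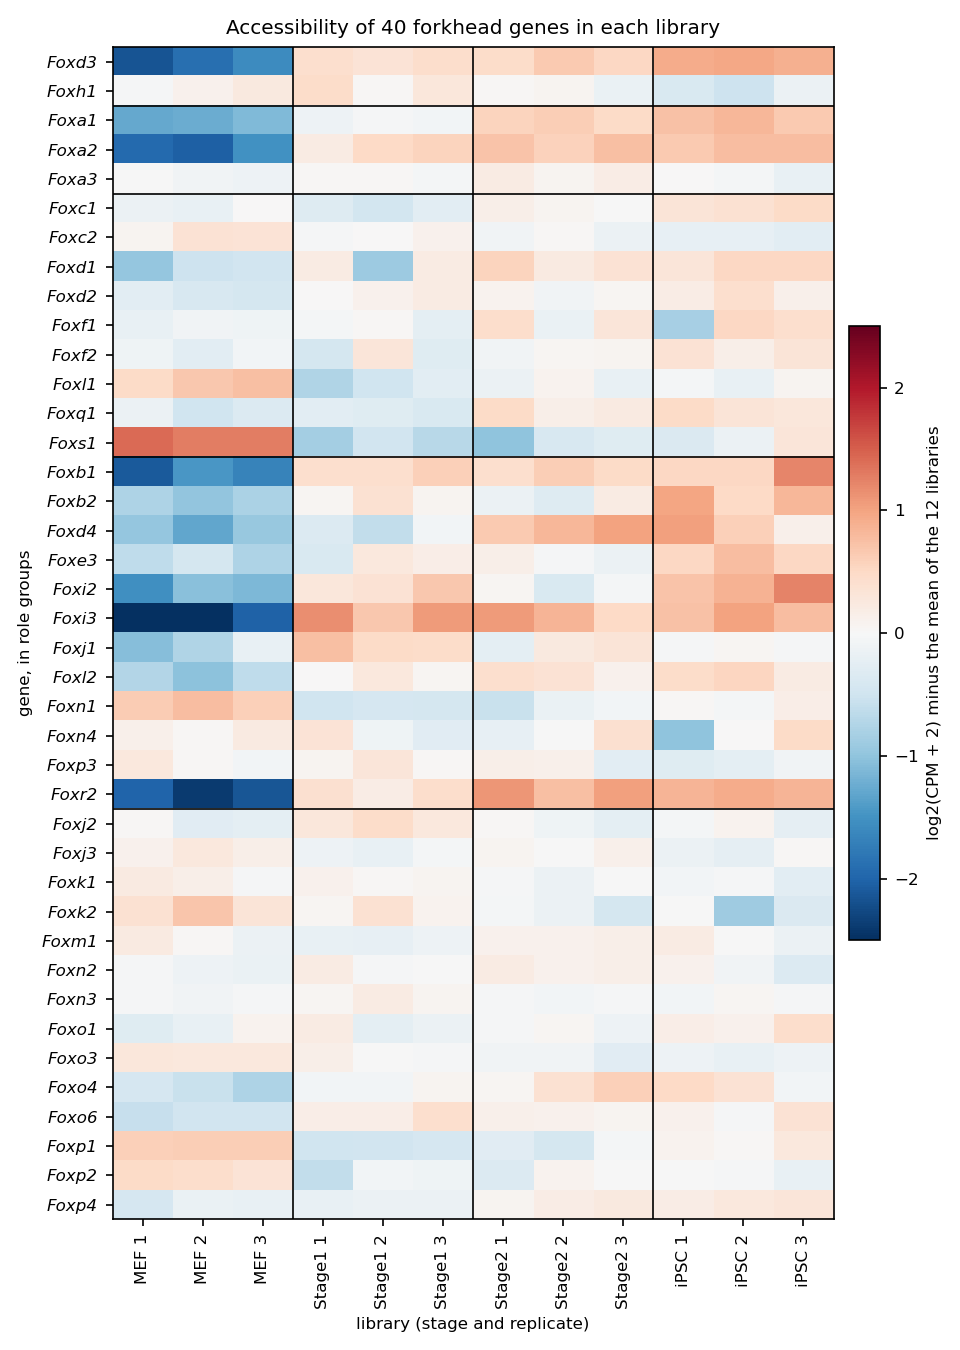
Accessibility of 40 of the 41 forkhead genes with a region in each of the 12 libraries, as log2(CPM + 2) minus the gene's mean over the 12 libraries (colour), genes down the page in groups of roles separated by lines and libraries across in the order MEF, Stage1, Stage2, iPSC. Genes such as Foxi3, Foxr2, Foxd3 and Foxa2 are low in the 3 MEF libraries and higher in all others, and Foxs1 shows the reverse.

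Foxd3, which keeps embryonic stem cells and the epiblast undifferentiated and later acts in the neural crest, was low in MEF and open at every later stage. Its 6 regions held 7.91, 9.97 and 13.0 CPM in the MEF libraries, 57.7, 54.1 and 58.1 CPM in Stage1, 59.0, 68.2 and 61.7 CPM in Stage2, and 82.9, 85.0 and 80.5 CPM in iPSC. Every MEF library lay below all others and every iPSC library above all others. The background expected over these regions was 5.87 CPM in MEF and 20.1 CPM in iPSC, so the level stood 1.75-fold over background in MEF, 4.86-fold in Stage1, 4.03-fold in Stage2 and 4.13-fold in iPSC. The log2 fold change was 2.53 ± 0.17 (SE; adjusted p = 2.25e-22) for Stage1 against MEF and 3.07 ± 0.16 (adjusted p = 6.70e-28) for iPSC against MEF. All 6 regions of Foxd3 (chr4:99656299-99658671 with its flanks) were higher in Stage1 than in MEF, by 1.33 to 3.09 on the log2 scale, and none of them was in the MEF list of the authors. They were therefore counted only because a later stage listed them. The region over the printed promoter, chr4:99655851-99656250, had 8.13 CPM in Stage1, 8.23 CPM in Stage2 and 10.2 CPM in iPSC, against 1.57 CPM in MEF.

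Foxh1, the DNA-binding partner of Smad proteins in Nodal signalling (chr15:76667829-76671614), had regions that changed in opposite directions. Summed over its 3 regions it held 58.8, 53.1 and 69.6 CPM in iPSC, against 74.9, 82.9 and 91.3 CPM in MEF, without overlap, and the log2 fold change was -0.45 ± 0.13 (adjusted p = 0.00124). The region overlapping the gene at chr15:76669601-76670100 was higher, with 13.5, 9.79 and 14.5 CPM in iPSC, against 0.792, 1.13 and 2.01 CPM in MEF (log2 fold change 3.34 ± 0.41, adjusted p = 8.28e-12 over all regions tested). It was already higher in Stage1, by 3.18 ± 0.42 (adjusted p = 6.32e-11). The region at chr15:76659501-76660500, outside the gene, fell to 26.4 CPM in iPSC, against 65.2 CPM in MEF (log2 fold change -1.30 ± 0.17, adjusted p = 6.28e-11). All 3 regions were also linked to Cyhr1, Kifc2 or Ppp1r16a. With regions over the gene span alone, the summed fold change of iPSC against MEF turned to 0.33 on the log2 scale and was not called (adjusted p = 0.104). The lower call of Foxh1 in iPSC was also lost with a flank of 50 kb (-0.14) and with libraries thinned to equal depth (-0.23), an alternative chosen after seeing the data.

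The other genes of the Nodal pathway gave 8 higher and 3 lower of 14 tested in iPSC against MEF, beside 32.9% and 32.2% of all genes, with a median of 1.01, and 6 higher and 1 lower in Stage1 against MEF, with a median of 0.38. On the whole-library scale the counts turned to 2 higher and 8 lower in iPSC (median -0.70) and 3 higher and 7 lower in Stage1 (median -0.59). Of all genes, 4.48% were higher and 86.5% lower in iPSC on that scale, and 7.53% and 69.8% in Stage1. Tdgf1, the Nodal co-receptor, averaged 96.1 ± 7.43 CPM in iPSC and 11.7 ± 1.53 CPM in MEF (SD, n = 3 each; log2 fold change 3.07 ± 0.15), and Nodal itself 42.0 ± 1.53 CPM in iPSC and 7.91 ± 2.00 CPM in MEF (2.48 ± 0.20). Their fold changes on the whole-library scale were 1.37 and 0.79. Smad3, which carries the signal to Foxh1, was lower, at 91.7 ± 19.3 CPM in iPSC and 219 ± 9.03 CPM in MEF (-1.27 ± 0.11), and Smad2 and Smad4 were lower too. Mixl1, a mesendoderm target, did not pass the filter on low counts.

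Of the endoderm genes, Foxa1 and Foxa2 rose and Foxa3 was not called. Foxa2, a pioneer factor of endoderm and floor plate, held 40.3, 49.5 and 51.8 CPM in Stage1, against 7.56, 6.84 and 10.8 CPM in MEF (log2 fold change 2.55 ± 0.18, adjusted p = 1.09e-20), and 55.8, 60.5 and 60.6 CPM in iPSC (2.87 ± 0.18 against MEF, adjusted p = 1.75e-23). All Stage1, Stage2 and iPSC libraries lay above all MEF libraries. Its 4 regions were each higher in Stage1 than in MEF, by 1.44 to 4.42 on the log2 scale, and the promoter region chr2:148046051-148046700 averaged 14.1 CPM in Stage1, 18.8 CPM in Stage2 and 23.1 CPM in iPSC, against 2.31 CPM in MEF. Foxa1, a partner of Foxa2 in endoderm, was at 11.7 to 13.4 CPM in MEF, 28.1 to 30.2 CPM in Stage1, 44.2 to 48.5 CPM in Stage2 and 49.7 to 56.4 CPM in iPSC. No neighbouring stages of Foxa1 overlapped, although iPSC against Stage2 was not called (0.19 ± 0.16, adjusted p = 0.482). Its level over background was 3.54-fold in MEF, 4.23-fold in Stage1, 5.02-fold in Stage2 and 4.45-fold in iPSC. Its Stage1 rise (1.26 ± 0.19, adjusted p = 1.65e-08) was not called on the whole-library scale (0.31), nor was its rise in iPSC against MEF (2.12, or 0.43 on that scale), and all 4 of its regions lie close to Ttc6 as well. Foxa3, a liver factor, held 98.0, 94.0 and 85.5 CPM in iPSC, against 96.8, 91.5 and 89.9 CPM in MEF, which overlapped, and its 7 regions are all shared with Mypop, Irf2bp1 or Sympk.

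**Figure D2:**
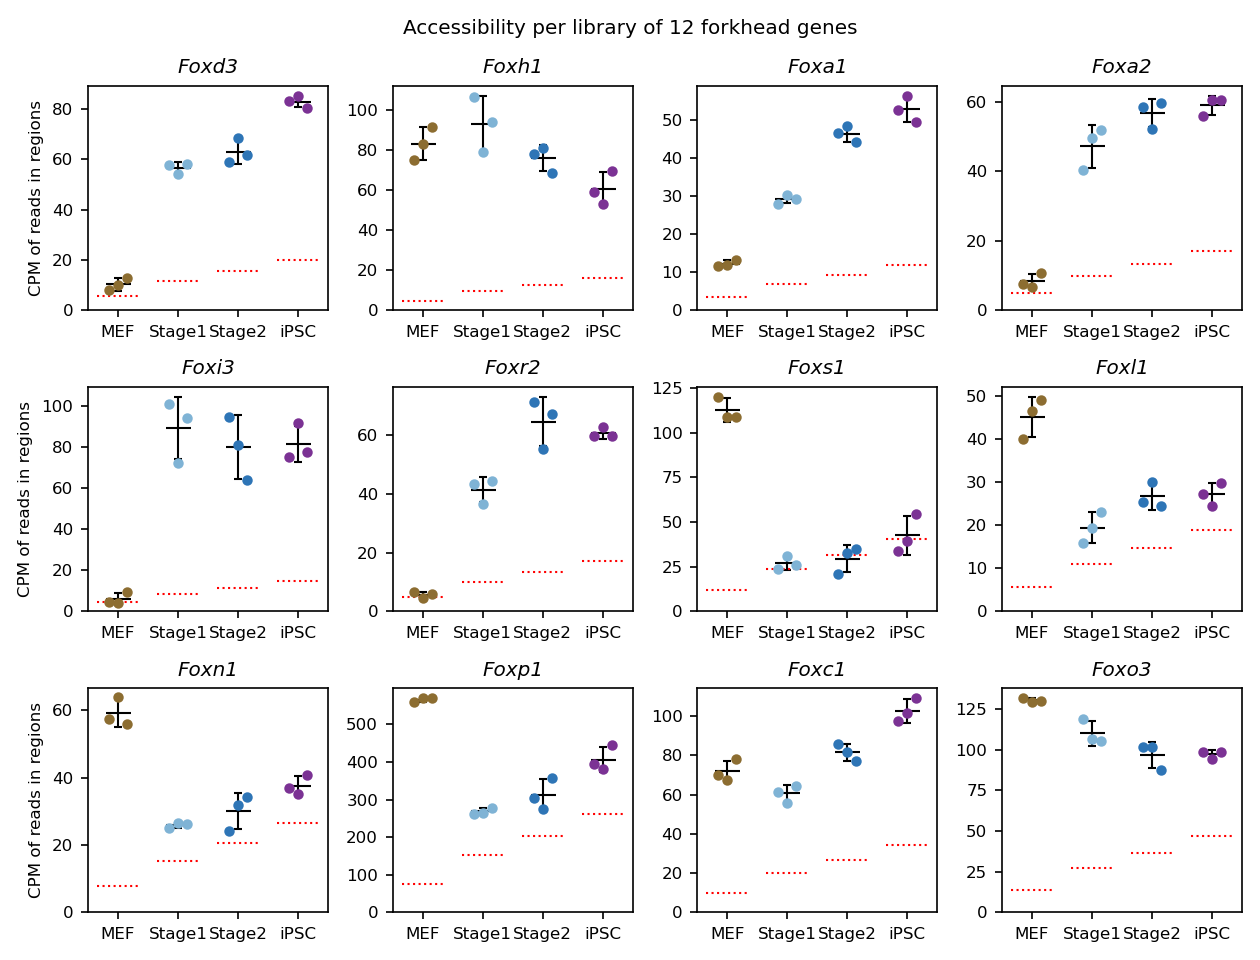
CPM of reads in regions (y axis) for 12 forkhead genes in each library (points) of MEF, Stage1, Stage2 and iPSC, with the mean and SD of the 3 libraries (bars) and the level an even background would give (dotted lines). The MEF points of Foxd3, Foxa2, Foxi3 and Foxr2 sit near the dotted line, and those of Foxs1 stand at 109 to 120 CPM while its later stages lie on the line.

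Of the 13 tested tissue-restricted genes of ectoderm, brain and other organs, 10 were higher and 1 lower in Stage1 against MEF, beside 32.9% and 32% of all genes, with a median log2 fold change of 1.41, and the same counts, 10 and 1, held for iPSC against MEF, with a median of 1.82. On the whole-library scale 4 were higher and 3 lower in Stage1 (median 0.46), beside 7.53% and 69.8% of all genes. In iPSC 5 were higher and 4 lower on that scale (median 0.13), beside 4.48% and 86.5% of all genes. Of the members called higher, Foxi3, Foxr2, Foxb1, Foxi2, Foxd4 and Foxb2 had no region in the MEF list of the authors. They were counted only because a later stage listed their regions, so their direction and these counts were partly set by that choice. Foxi3, which is needed for ectodermal placodes, ears and teeth, had the largest rise of the family. It held 101, 72.4 and 94.3 CPM in Stage1, against 4.47, 3.91 and 9.39 CPM in MEF. All Stage1 libraries stood above all MEF libraries, whose mean of 5.92 CPM was 1.36-fold the background. The log2 fold change was 4.07 ± 0.19 (adjusted p = 5.91e-28), or 3.10 with the whole library as the base. Among its 3 regions the largest fold change was past the gene's end, at chr6:70963851-70964850, which held 81.6, 49.5 and 58.6 CPM in Stage1, 65.0, 53.4 and 42.4 CPM in Stage2 and 52.6, 51.2 and 49.9 CPM in iPSC, against 1.39, 1.81 and 1.61 CPM in MEF (5.26 ± 0.25 for Stage1, adjusted p = 1.44e-34). No later library of this region came near the MEF libraries. The promoter region of Foxi3, whose sequence is printed above, rose to 18.98 CPM in Stage1, against 4.56 CPM in MEF (2.28 ± 0.31, adjusted p = 2.50e-10).

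Foxr2, an X-linked gene known as an oncogene in brain tumours, held 43.3, 36.6 and 44.3 CPM in Stage1, 71.3, 55.3 and 67.3 CPM in Stage2 and 59.6, 62.9 and 59.6 CPM in iPSC, against 6.53, 4.50 and 5.78 CPM in MEF. No later library overlapped a MEF library, and the MEF mean was 1.1-fold the background. Its region at chrX:153118851-153119500, just past the start site, had 43 reads in Stage1, 77 in Stage2 and 71 in iPSC, against 1 read in MEF, summed over the 3 libraries of each group. Scaled to the reads in regions without TMM, the ratio over MEF was 165 in Stage1 (exact 95% interval 28.1 to 6676) and 285 in iPSC (49.6 to 11430), where the intervals cover counting error only. The MEF mean of 0.076 CPM lay below the 1.60 CPM expected from background, so these ratios rest on a level under background. In iPSC the region held 18.7 CPM, against 4.47 CPM expected. The fitted log2 fold changes against MEF were 6.19 ± 0.62 for Stage1 and 7.01 ± 0.55 for iPSC. A region at chrX:153142551-153143150, past the gene's far end and also near Rragb, had 31 reads in Stage1, 82 in Stage2 and 27 in iPSC, against 2 in MEF, and was lower in iPSC than in Stage2 (-1.22 ± 0.33, adjusted p = 0.0338).

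Foxb1, a gene of the hypothalamus and mammillary body, held 17.5, 17.4 and 20.0 CPM in Stage1, against 1.38, 3.32 and 2.53 CPM in MEF (log2 fold change 2.94 ± 0.31, adjusted p = 3.66e-13). The groups did not overlap, and the MEF mean was 1.17-fold the background. Foxi2 (2.22 ± 0.31), Foxb2 (1.51 ± 0.41), Foxd4 (1.41 ± 0.52), the cilia gene Foxj1 (1.34 ± 0.17), the ovarian gene Foxl2 (0.98 ± 0.18) and the lens gene Foxe3 (0.75 ± 0.27) were also called higher. The level over background did not rise from MEF to Stage1 for Foxl2 (4.73-fold to 4.67-fold) or Foxe3 (3.66-fold to 3.17-fold). It rose for Foxi2, Foxb2, Foxj1 and Foxd4, the last from 1.38-fold to 1.78-fold alone. All 4 regions of Foxj1 are shared with Rnf157. Foxn1, which builds thymic epithelium, was lower, with 25.1, 26.6 and 26.2 CPM in Stage1, against 57.4, 63.8 and 56.0 CPM in MEF (-1.19 ± 0.16, adjusted p = 3.49e-10). Foxn4 of the retina and Foxp3 of regulatory T cells were not called. The epithelial marker genes moved with this group (5 of 5 higher, none at 0), at 213 to 220 CPM in Stage1, against 60.7 to 96.8 CPM in MEF, and their part in the result was not tested.

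**Figure D3:**
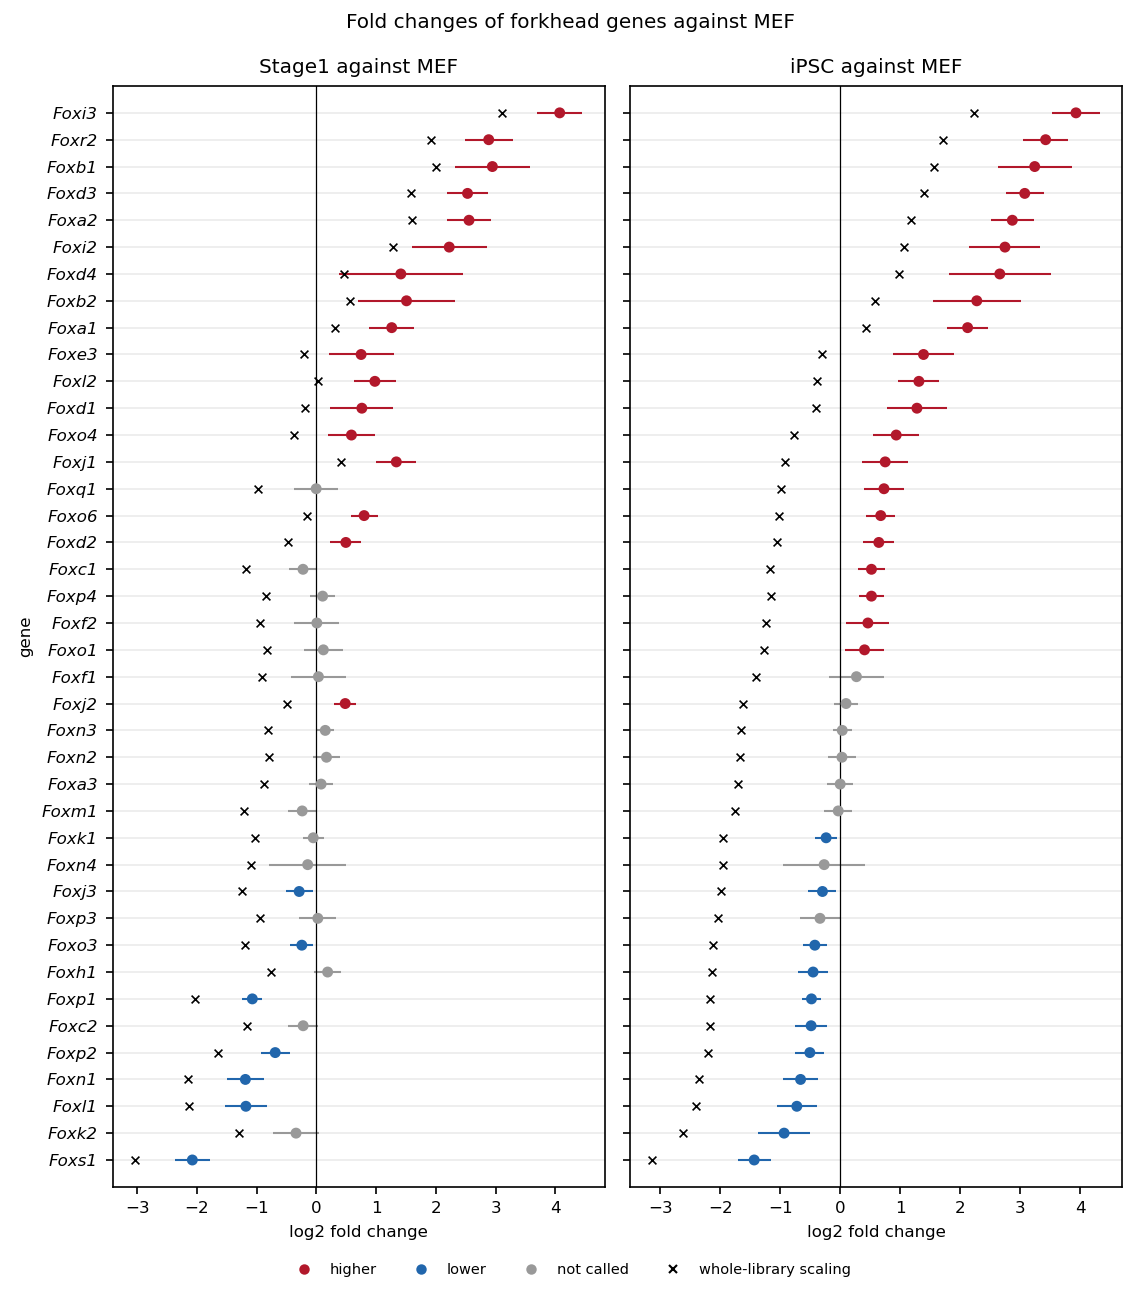
Log2 fold change (x axis) of 40 of the 41 tested forkhead genes (y axis) for Stage1 against MEF (left) and iPSC against MEF (right), as points with bars of 2 standard errors to each side, coloured by the call. Crosses give the fold change with the whole library as the base; they lie to the left of every point, and those of Foxi3, Foxr2, Foxb1, Foxd3, Foxa2 and Foxi2 stay right of 0 in both panels.

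Members grouped under mesenchyme and mesoderm were called in both directions when scaled to the reads in regions. The group also holds Foxq1, an epithelial and hair factor, so its counts and medians are not of mesenchymal genes alone. In Stage1 against MEF 2 of the 9 were higher (Foxd1, Foxd2), 2 lower (Foxs1, Foxl1) and 5 not called, with a median of -0.01, and in iPSC against MEF 5 were higher (Foxd1, Foxq1, Foxd2, Foxc1, Foxf2) and 3 lower (Foxs1, Foxl1, Foxc2), beside 32.9% and 32.2% of all genes, with a median of 0.46. On the whole-library scale none of the 9 was higher in either comparison, 7 were lower in Stage1 (median -0.97) and 8 in iPSC (median -1.24). These counts stand beside 69.8% of all genes lower in Stage1 and 86.5% in iPSC on that scale. Foxs1, a gene of pericytes and smooth muscle of vessels, had the lowest fold change of the family. It held 23.6, 31.1 and 26.2 CPM in Stage1, 20.8, 32.6 and 35.1 CPM in Stage2 and 33.9, 39.2 and 54.7 CPM in iPSC, against 120.2, 108.9 and 109.0 CPM in MEF. All MEF libraries stood above all others, at 9.51-fold the background, while the later stages were at 1.15-fold, 0.935-fold and 1.05-fold of theirs. The log2 fold change was -2.08 ± 0.15 for Stage1 against MEF (adjusted p = 3.68e-21) and -1.44 ± 0.14 for iPSC against MEF (adjusted p = 5.79e-15), and all 7 tested regions were lower in both. The region chr2:152927301-152927850 had 1.42, 0 and 1.82 CPM in iPSC, against 17.2, 13.4 and 13.3 CPM in MEF (-3.75 ± 0.49, adjusted p = 8.94e-11). All 8 regions are also linked to Mylk2, Dusp15 or Ttll9. Each was listed in MEF alone by the authors and was therefore counted only through MEF.

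Foxl1, which marks the mesenchymal niche cells of the gut, held 15.95, 19.2 and 23.1 CPM in Stage1, against 40.1, 46.3 and 49.1 CPM in MEF (-1.18 ± 0.18, adjusted p = 1.52e-08), without overlap. Foxc2, its neighbour and a gene of lymphatic vessels and skeleton, held 49.0, 49.0 and 46.7 CPM in iPSC, against 59.6, 72.7 and 72.6 CPM in MEF (-0.49 ± 0.13, adjusted p = 0.00102). All 5 regions of Foxc2 are shared with Foxl1 or Mthfsd. The 1 tested region of Foxl1 is among them, so the falls of Foxl1 and Foxc2 share reads. Foxc1, a relative of Foxc2 that acts in the eye and skeleton, differed between its sum and its promoter. The sum of its 10 regions was 97.3, 101 and 109 CPM in iPSC, against 70.1, 67.7 and 78.0 CPM in MEF (0.52 ± 0.11, adjusted p = 2.92e-05), whereas the region over the printed promoter, chr13:31806201-31806900, had 15.6, 14.3 and 17.3 CPM in iPSC, against 31.1, 36.0 and 35.3 CPM in MEF (-1.12 ± 0.21, adjusted p = 1.72e-06). The sum of Foxc1 was lower on the whole-library scale, at -1.17, and it was not called with shared regions left out (0.03). Foxd1, of kidney stroma, was called in Stage1 (0.76 ± 0.26, adjusted p = 0.0092) although its libraries overlapped, at 18.2, 7.33 and 18.1 CPM in Stage1 and 6.88, 10.2 and 10.5 CPM in MEF. It was not called without MEF replicate 1 (0.56), Stage1 replicate 1 (0.61) or Stage1 replicate 3 (0.57). Over background, Foxd1 stood at 4.69-fold in MEF and 3.75-fold in Stage1. Foxf1 and Foxf2, the Hedgehog-responsive genes of gut and lung mesenchyme, were not called in Stage1. Foxf1 held 18.2, 19.2 and 15.6 CPM in Stage1, against 16.3, 17.8 and 17.3 CPM in MEF, and Foxf2 held 34.7, 29.4 and 33.8 CPM in iPSC, against 24.6, 21.7 and 25.3 CPM in MEF (0.46 ± 0.18, adjusted p = 0.0214). All 3 regions of Foxf1 are shared with Mthfsd. Foxf2 was not called in iPSC without MEF replicate 2 (0.37), iPSC replicate 1 (0.38) or iPSC replicate 3 (0.42), and Foxf1 was called in iPSC without iPSC replicate 1 (0.63). Fibroblast markers fell over the same step, 10 of 11 in Stage1, as did 4 of 6 endothelial ones (149 to 177 CPM in Stage1, against 272 to 281 CPM in MEF), and their part in these results was not tested.

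The group called broadly expressed came from a fixed list, and expression was not measured here, so the label may not suit every member. Of its members, 3 of 14 were higher in Stage1 against MEF, 4 lower and 7 not called, with a median of 0.02, and in iPSC against MEF 4 were higher and 6 lower, beside 32.9% and 32.2% of all genes, with a median of -0.00. None was higher on the whole-library scale, where 11 were lower in Stage1 (median -0.94) and all 14 in iPSC (median -1.71). Of all genes, 69.8% were lower in Stage1 and 86.5% in iPSC on that scale. The Foxo genes, effectors of insulin signalling, differed in direction. Foxo3 held 118.5, 106.3 and 104.9 CPM in Stage1, 101.6, 101.4 and 87.7 CPM in Stage2 and 98.8, 94.0 and 98.4 CPM in iPSC, against 131.8, 129.1 and 129.6 CPM in MEF. Every later library of Foxo3 was below every MEF library, and the log2 fold change was -0.42 ± 0.10 for iPSC against MEF (adjusted p = 0.000212). Its Stage1 change (-0.25 ± 0.10) was not called without MEF replicate 2 (-0.24), MEF replicate 3 (-0.23), Stage1 replicate 2 (-0.23) or Stage1 replicate 3 (-0.21). Foxo6 was higher in Stage1 by 0.80 ± 0.11 (adjusted p = 4.96e-09) and Foxo4 by 0.58 ± 0.20 (adjusted p = 0.0079), while Foxo1 was called in iPSC against MEF alone, at 39.2, 37.6 and 47.7 CPM in iPSC, against 27.7, 30.5 and 37.2 CPM in MEF (0.40 ± 0.16, adjusted p = 0.025). That call of Foxo1 was lost without MEF replicate 1 (0.31), MEF replicate 2 (0.37), iPSC replicate 1 (0.42) or iPSC replicate 3 (0.29). Its promoter region, printed above, was not called in any of the 4 comparisons, at 28.3 CPM in MEF, 25.7 CPM in Stage1, 21.7 CPM in Stage2 and 26.3 CPM in iPSC. The 3 higher Foxo genes were lower in iPSC on the whole-library scale, at -1.02 for Foxo6, -0.77 for Foxo4 and -1.27 for Foxo1. Over background, Foxo6 went from 8.86-fold in MEF to 7.67-fold in Stage1, and Foxo4 from 5.47-fold to 4.21-fold. Foxo1 went from 10.4-fold in MEF to 3.99-fold in iPSC, so none of the 3 rose by that measure. Both regions of Foxo4 are shared with Il2rg or Gm614.

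Among the 14 genes of insulin, PI3K and AKT signalling upstream of the Foxo proteins, 2 were higher and 6 lower in iPSC against MEF (median -0.20), and 3 were higher and 3 lower in Stage1 against MEF (median -0.12), beside 32.9% and 32.2% of all genes in iPSC. None was higher with the whole library as the base, where 14 were lower in iPSC and 11 in Stage1, beside 86.5% and 69.8% of all genes. Igf1r, a growth factor receptor, averaged 164 ± 4.01 CPM in Stage1 and 333 ± 4.62 CPM in MEF (-1.02 ± 0.08), and Pik3ca, a catalytic subunit, was lower in both comparisons. Sirt1, a deacetylase that acts on Foxo proteins, was higher in both, at 76.6 ± 9.01 CPM in iPSC and 46.1 ± 4.34 CPM in MEF (0.74 ± 0.12). Of the 13 Foxo targets 4 were higher and 3 lower in Stage1 (median -0.09), close to the 32.9% and 32% of all genes, among them Klf2, a zinc finger factor (0.89 ± 0.11), and Sesn1, a stress response gene (-0.65 ± 0.11). In iPSC 3 were higher (Klf2, Cdkn1b, Bcl2l11) and 1 lower (Sesn1), with a median of 0.05. None of the targets was higher with the whole library as the base, where 11 were lower in Stage1 and 13 in iPSC. Those counts stand beside 69.8% and 86.5% of all genes, and Klf2 stood at -0.073 in Stage1.

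Foxp1, a large gene with roles in blood, heart and brain, had the largest Stage1 change among the broadly expressed members. It held 262, 265 and 279 CPM in Stage1, 303, 274 and 358 CPM in Stage2 and 395, 381 and 444 CPM in iPSC, against 559.5, 570.3 and 569.0 CPM in MEF. MEF libraries lay above all others, and the level over background was 1.77-fold in Stage1, 1.53-fold in Stage2 and 1.56-fold in iPSC, against 7.41-fold in MEF. The log2 fold change was -1.07 ± 0.08 for Stage1 against MEF (adjusted p = 2.12e-19) and -0.48 ± 0.08 for iPSC against MEF (adjusted p = 2.55e-07). Its relative Foxp2, known for a part in speech in humans, was lower in Stage1 (-0.69 ± 0.12, adjusted p = 8.78e-07). Foxp4 was not called in Stage1 and was higher in iPSC (0.52 ± 0.10). Foxk1 and Foxk2, repressors tied to metabolism and autophagy, were lower in iPSC than in MEF. Foxk2 held 19.6, 9.81 and 14.9 CPM in iPSC, against 26.3, 33.2 and 25.3 CPM in MEF (-0.94 ± 0.22, adjusted p = 0.000142), from 1 region that is shared with Narf. Foxk1 held 170, 173 and 148 CPM in iPSC, against 207, 198 and 173 CPM in MEF, with overlap (-0.24 ± 0.09, adjusted p = 0.0194), and was not called without MEF replicate 1 (-0.19) or iPSC replicate 3 (-0.19). Foxm1, the mitotic factor, held 70.7, 69.6 and 73.1 CPM in Stage1, 86.5, 86.7 and 89.1 CPM in Stage2 and 92.7, 79.3 and 72.5 CPM in iPSC, against 94.7, 82.1 and 72.2 CPM in MEF, and was not called in either comparison with MEF, although it was lower in Stage1 without MEF replicate 3 (-0.29). All 5 regions of Foxm1 are shared with Rhno1, Tulp3 or Tex52. Of 8 mitotic targets of Foxm1, 3 were higher (Ccnb1, Ccnb2, Cenpf) and 3 lower (Birc5, Kif20a, Aurkb) in iPSC against MEF, close to the 32.9% and 32.2% of all genes. On the whole-library scale 0 of these targets were higher and 8 lower, beside 4.48% and 86.5% of all genes.

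Stage2 against Stage1, the 4 days after day 6, changed few members: 6 were higher and 1 lower, against 8.25% and 7.56% of all genes. Foxd4, linked to the neural precursor state, had the largest rise, to 9.55, 11.1 and 12.6 CPM in Stage2, against 3.80, 2.75 and 4.997 CPM in Stage1 (1.45 ± 0.41, adjusted p = 0.00917). Its groups did not overlap, and its level over background was 1.78-fold in Stage1, from 5, 3 and 8 reads, and 3.83-fold in Stage2. Foxq1, an epithelial and hair factor, held 42.1, 33.2 and 35.1 CPM in Stage2, against 24.3, 23.8 and 22.5 CPM in Stage1 (0.65 ± 0.19), without overlap. Foxa1 (0.67 ± 0.17), Foxr2 (0.63 ± 0.16), Foxc1 (0.42 ± 0.13) and Foxp4 (0.33 ± 0.11) were also higher. Foxj2, a broadly expressed activator, was lower, with 165, 151 and 137 CPM in Stage2 and 199, 224 and 196 CPM in Stage1 (-0.44 ± 0.10, adjusted p = 0.00123). In Stage1 it had been higher than in MEF (0.48 ± 0.09), although its level over background was 11.5-fold in Stage1 and 16.2-fold in MEF. On the whole-library scale none of the family was higher by edgeR's test (1 at an unadjusted p under 0.05) and 2 were lower, Foxj1 and Foxj2, against 0.348% and 6.69% of all genes, and the median of all genes shifted to -0.37. The count of higher members was 3 without Stage1 replicate 2 and 3 with DESeq2. Foxd4 (1.29) and Foxc1 (0.38) lost the call without Stage1 replicate 2, Foxc1 (0.38) and Foxq1 (0.54) without Stage2 replicate 1, Foxq1 (0.62) without Stage1 replicate 3, and Foxp4 without any library but Stage2 replicate 1 (0.30 to 0.34). Foxj2, Foxr2 and Foxp4 lost it both with regions linked to 1 gene alone and with regions over the gene span alone. Foxc1 also lost it in the former setting and Foxd4 in the latter. All regions of Foxa1 are shared, so the former setting gives it no value.

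The comparison of iPSC with Stage2 sets established cells against an intermediate, both sorted for Oct4-GFP+. By edgeR's test 2 members were higher and none lower, against 5.59% and 3.82% of all genes. At an unadjusted p under 0.05, 7 were higher and 1 lower, and DESeq2 called 1 higher and 0 lower. Foxi2 held 18.1, 20.4 and 26.8 CPM in iPSC and 10.7, 7.37 and 9.82 CPM in Stage2 (1.20 ± 0.29, adjusted p = 0.00544), without overlap, and it averaged 14.7 ± 2.44 CPM in Stage1. The promoter region of Foxi2, chr7:135410201-135410850, was the only forkhead region higher in iPSC than in Stage2, at 14.9, 14.3 and 20.0 CPM in iPSC, against 6.61, 3.60 and 6.73 CPM in Stage2 (1.51 ± 0.34, adjusted p = 0.00758). That region's call was lost without Stage2 replicate 2, without iPSC replicate 3 and on the whole-library scale. Foxp1 was higher by 0.38 ± 0.09 (adjusted p = 0.00242) without overlap. Its expected background was 203 CPM in Stage2 and 261 CPM in iPSC, and its level over background was 1.53-fold and 1.56-fold. Foxd3 missed the threshold at 0.40 ± 0.14 (adjusted p = 0.0547), also without overlap. The count of higher members was 1 without Stage2 replicate 2, where Foxp1 lost the call (0.30), 1 without iPSC replicate 3, where Foxi2 lost it (1.03), and 0 on the whole-library scale (1 at an unadjusted p under 0.05), where the median of all genes shifted to -0.33 and 0% of all genes were higher and 0.23% lower.

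The regions were also tested one by one, with their own TMM factors, so that a region's CPM is not on the same base as a gene's. Of the 277 forkhead regions 192 passed the filter, and in Stage1 against MEF 82 were higher and 58 lower, against 40.2% and 40.3% of all 71069 regions tested. In iPSC against MEF 91 were higher and 70 lower, against 40.8% and 40.8% of all regions. Within 1 kb of a gene end 21 of 49 regions were higher and 8 lower in Stage1, beside 24.6% and 32.8% of all pairs of a region and a gene at that distance. Farther away 61 of 143 were higher and 50 lower, beside 39.9% and 38.9% of all such pairs. Stage2 against Stage1 gave 7 higher and 8 lower regions, against 6.14% and 4.3% of all regions, and iPSC against Stage2 gave 1 higher and 4 lower, against 0.545% and 1.06%. With 1 library left out, Stage2 against Stage1 gave 3 to 6 higher and 3 to 9 lower regions. In iPSC against Stage2 the ranges were 0 to 1 higher and 0 to 2 lower, so no region call of that comparison held throughout.

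**Figure D4:**
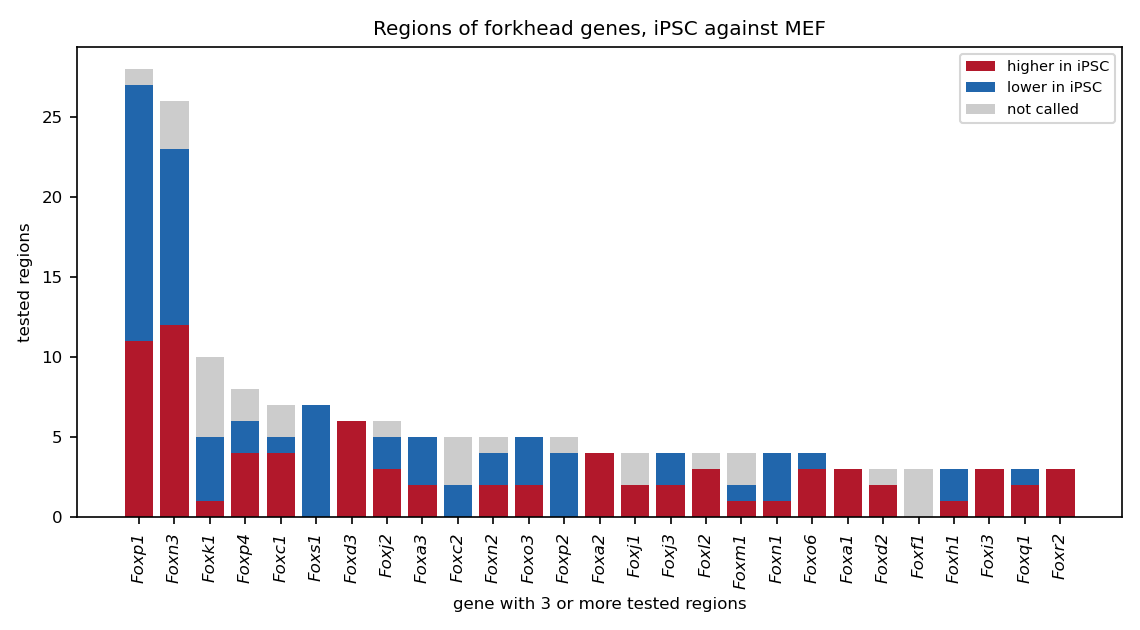
Number of tested regions (y axis) of forkhead genes with 3 or more of them (x axis, 27 genes) that were higher (red), lower (blue) or not called (grey) in iPSC against MEF. Foxd3, Foxa2, Foxi3 and Foxr2 have red alone, Foxs1 has blue alone, and Foxp1 and Foxn3 have both colours.

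Some members held regions that moved in opposite directions. Of 40 members with a tested region, 14 (35%) had both higher and lower regions in Stage1 against MEF, beside 37.6% of all genes with a tested region, and 15 (37.5%) in iPSC against MEF, beside 40.5% of all genes. These shares lay near those of all genes, and the median number of tested regions was 3.5 per member and 3 per gene. At Foxp1, on chr6:98925342-99522746, 11 regions were higher and 16 lower of 28 tested in iPSC against MEF, and 1 was not called. The region chr6:99327501-99328250 within the gene had 3.02, 0.869 and 1.83 CPM in Stage1, below the 3.15 CPM expected there from background, against 37.8, 43.7 and 45.4 CPM in MEF (-4.39 ± 0.33, adjusted p = 3.63e-22). The region chr6:99446601-99447450 was also lower in Stage1 (-4.11 ± 0.30), as was chr6:99063701-99064600 (-3.96 ± 0.33). In iPSC chr6:99159851-99160700 had the lowest fold change of the gene (-4.14 ± 0.42, adjusted p = 2.24e-15). The region chr6:99378901-99379550 opened, with 29.9, 20.3 and 37.2 CPM in iPSC, against 1.39, 2.49 and 1.61 CPM in MEF (3.92 ± 0.32, adjusted p = 7.00e-20). The region over the most upstream start site, chr6:99520751-99521550, averaged 15.5 CPM in Stage1 and 19.8 CPM in iPSC, against 23.6 CPM in MEF. It was called lower in Stage1 (-0.63 ± 0.23, adjusted p = 0.00883) and not called in iPSC (-0.28 ± 0.22, adjusted p = 0.227).

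**Figure D5:**
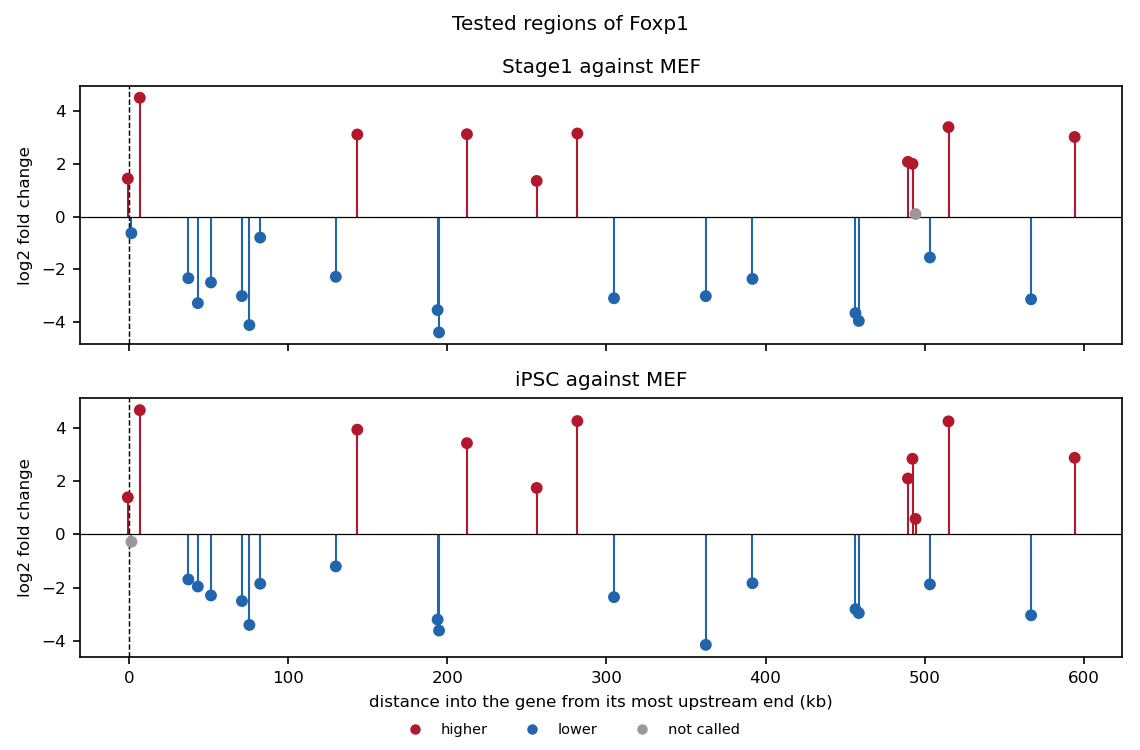
Log2 fold change (y axis) of the 28 tested regions of Foxp1 by the distance into the gene from its most upstream end in kb (x axis), for Stage1 against MEF (top) and iPSC against MEF (bottom), coloured by the call. Strong falls and rises, down to -4.39 and up to 4.65, alternate along the gene, while the region over the most upstream start site moved by -0.63 and -0.28.

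Foxn3, a repressor tied to cell cycle checkpoints, summed to 342 ± 12.3 CPM in iPSC and 334 ± 8.09 CPM in MEF and was not called in any comparison, yet 12 of its 26 tested regions were higher and 11 lower in iPSC against MEF. The region chr12:99412201-99413150 was at 0.990 to 1.61 CPM in MEF, 9.15 to 15.6 CPM in Stage1, 34.99 to 40.2 CPM in Stage2 and 35.5 to 53.5 CPM in iPSC. It rose in Stage1 against MEF by 3.10 ± 0.39 and in Stage2 against Stage1 by 1.71 ± 0.25 (adjusted p = 2.41e-07). Other regions of Foxn3 were highest at an intermediate stage: chr12:99285151-99285700 averaged 5.23 CPM in Stage2, against 13.1 CPM in Stage1 (-1.27 ± 0.37, adjusted p = 0.0154), and chr12:99343301-99343800 averaged 6.92 CPM in iPSC, against 16.6 CPM in Stage2 (-1.25 ± 0.33, adjusted p = 0.0286). At chr12:99377001-99377550 Foxn3 had 2.204, 3.00 and 2.69 CPM in Stage2, against 8.32, 4.34 and 8.54 CPM in Stage1 (-1.45 ± 0.47, adjusted p = 0.0322).

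A region at Foxp4, chr17:47898351-47898850, opened at Stage2, with 8.26, 9.60 and 10.8 CPM in Stage2, against 1.51, 0 and 2.44 CPM in Stage1 (2.65 ± 0.52, adjusted p = 0.000174), and stood at 14.9 CPM in iPSC. At Foxj3, chr4:119626151-119626600 was higher in Stage2, at 10.8 CPM, against 2.51 CPM in Stage1 (2.13 ± 0.49, adjusted p = 0.00132). At Foxj1, chr11:116329201-116330050 was lower in Stage2, at 12.1, 12.6 and 16.2 CPM, against 30.2, 20.8 and 25.6 CPM in Stage1 (-0.92 ± 0.27, adjusted p = 0.0141). At Foxn2, chr17:88498051-88498700 was lower in iPSC at 6.83 CPM, against 17.6 CPM in Stage2 (-1.38 ± 0.32, adjusted p = 0.0115). At Foxo3, the promoter region chr10:42276401-42277050 fell to 19.2 CPM in Stage1, 14.4 CPM in Stage2 and 12.1 CPM in iPSC, against 36.2 CPM in MEF (-1.60 ± 0.22 for iPSC, adjusted p = 5.49e-10), while chr10:42246401-42246950 within the gene stood at 12.3 CPM in Stage1, against 0.749 CPM in MEF (3.89 ± 0.44, adjusted p = 3.54e-13).

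Over promoters, 20 of the 33 entries overlapped a counted region. In Stage1 against MEF 5 of these were higher, at Foxa2, Foxd3, Foxi2, Foxi3 and an internal start of Foxp1, 6 were lower, at Foxc1, Foxj2, Foxk2, Foxo3, Foxp4 and the most upstream start of Foxp1, and 9 were not called. Of all promoter entries over a tested region 19.5% were higher and 34.9% lower in that comparison. In iPSC against MEF 8 were higher and 7 lower, beside 17.8% and 46.6% of all such entries. Between iPSC and Stage2 the promoter of Foxi2 was the 1 called, as higher, beside 0.369% higher and 1.43% lower of all such entries.

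The authors' stage lists, 1 per group and with no replicate, came from these same samples and give no independent support. Every counted region was in at least 1 of them. Of the 277 forkhead regions 193 were in the MEF list, 92 in the Stage1 list, 114 in the Stage2 list and 90 in the iPSC list. Regions listed for MEF alone made up 129 (46.6%, against 56.3% of all regions), and regions of all 4 lists 39 (14.1%, against 11.02%). Of 7 members no region was in the MEF list: Foxd3 with 6 regions, Foxi3, Foxr2 and Foxb1 with 3 each, Foxd4 and Foxi2 with 2 each, and Foxb2 with 1. All 8 regions of Foxs1 and all 3 of Foxf1 were listed in MEF alone, as were 43 of 61 at Foxp1. Members with no region in the MEF list, or with regions in MEF alone, were counted only through the stages that listed them. The direction of their changes was therefore partly set by how regions were chosen.

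Measured per kb of region, the order of the family changed with the stages. In MEF, Foxk2 (40.4 ± 6.19 CPM per kb), Foxh1 (37.8 ± 3.73) and Foxj2 (35.2 ± 4.40) had the highest levels and neighbours in that order did not differ beyond their SD, and Foxr2 was the least at 2.44 ± 0.447 CPM per kb. In iPSC, Foxi3 (40.7 ± 4.39 CPM per kb) and Foxj2 (37.7 ± 4.33) had the highest levels, again within their SD, and Foxs1 was the least at 7.82 ± 1.98 CPM per kb. The number of members under 2-fold of their background was 7 in MEF, 5 in Stage1, 7 in Stage2 and 11 in iPSC. The median level over background was 6.73-fold in MEF, 4.21-fold in Stage1, 3.64-fold in Stage2 and 2.96-fold in iPSC. Some members called higher in iPSC than in MEF stood lower over background, such as Foxc1 (7.11-fold in MEF, 2.97-fold in iPSC). Others stood higher, such as Foxd3 (1.75-fold and 4.13-fold). The 7 in MEF were Foxa2, Foxb1, Foxd3, Foxd4, Foxi2, Foxi3 and Foxr2. They were also the 7 members with the largest fold changes of iPSC against MEF. The MEF level enters both measures, so that match was largely fixed in advance. All of them but Foxa2 also had no region in the MEF list.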

How the data were processed

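ATAC-seq reads of 12 libraries (4 groups of 3) were analysed from the deposited files. The authors' tables give raw read counts for each of 115000 regions with no normalization, together with the reads that fell outside or were ambiguous, and those 2 classes stayed out of library sizes and tests. The submitters' processing notes name mm10 as the build and, as tools, HTSeq 0.5.4p3, DESeq2 1.12.4, Picard 2.6.0, Bowtie2 2.2.6 and SAMtools 0.1.19; their roles, any shift of reads to the insertion site and the peak caller are not given in the sources used here. The authors also deposited 1 list of regions per group, in which every line names 3 replicates as holding the interval; these lists were used for overlap of at least 1 bp.

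Regions were linked to RefSeq protein-coding genes of GRCm38.p6 that they overlapped or lay within 10 kb of, with GenomicRanges 1.54.1 in R 4.3.3, and counts were summed per gene. A region near several genes counted for each: 62 of the 277 forkhead regions were shared, and for 11 members all were. Genes and regions were tested with edgeR 4.0.16 (robust quasi-likelihood F test, TMM factors, filterByExpr with a minimum count of 10 and a minimum total of 15) in 1 model of the 4 groups, with Benjamini-Hochberg adjustment over all genes or all regions tested and a threshold of 0.05. The test was checked on simulated counts: calls of genes kept close to the threshold for false calls, whereas calls of single regions held more false ones than the threshold allows and missed most of the small changes, so region calls are less sure than gene calls. CPM are counts scaled by the reads in regions and TMM factors. Background CPM is the density of reads outside regions times the width of the gene's regions. The whole-library scale took all reads of a library as its size, with no TMM. Errors after ± are SD for levels and SE for log2 fold changes.

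Replicate pairs of a group differed by more than sampling noise (chi-square per degree of freedom 1.02 to 2.14, the closest pair with p = 0.000376), so all were counted. Intervals of read ratios cover counting error only. Per-library values are given for the 4 members with the largest changes in each direction of each comparison whose libraries do not overlap, for a fixed set of members, and for the 3 regions with the largest changes in each direction. Promoter regions, the named rises at Foxp1 and Foxh1, the other Foxo3 region and the members named beyond these were chosen after their values were seen. The members and lists were chosen with earlier results of these data known. 1 tested member enters the counts and medians but is not reported here by name. Alternatives were DESeq2 1.42.0, other scalings, filters, flanks and region sets, a replicate block and each library left out.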

Additional observations from a re-analysis of the deposited data

How the results depend on the processing

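Of 939 values of single members under the alternatives, 796 kept their direction and side of the threshold, 74 lost and 25 gained the call, and 44 changed sign. Of 200 counts, 152 stayed within 1.5 times. The cause of these changes was not tested.

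With the whole library as the base, forkhead genes were 6 higher and 23 lower in Stage1 against MEF, 0 and 2 in Stage2 against Stage1, 0 higher in iPSC against Stage2, and 7 and 28 in iPSC against MEF; regions were 141 lower in Stage1 against MEF, 3 and 5 in Stage2 against Stage1, 0 and 1 in iPSC against Stage2, and 47 and 161 in iPSC against MEF. On that scale the sign changed in Stage1 against MEF for Foxh1 (-0.76), Foxa3 (-0.89), Foxo1 (-0.83), Foxd1 (-0.19), Foxf1 (-0.91) and Foxf2 (-0.94), in Stage2 against Stage1 for Foxd3 (-0.24) and Foxp4 (-0.057), and in iPSC against MEF for Foxo1 (-1.27), Foxc1 (-1.17), Foxd1 (-0.40), Foxf1 (-1.41), Foxf2 (-1.24) and Foxq1 (-0.98). DESeq2 called 3 members higher in Stage2 against Stage1 and 1 in iPSC against Stage2, where it gave Foxi2 no adjusted p. With the 2 compared groups alone, 2 were lower in Stage2 against Stage1 and 4 higher in iPSC against Stage2.

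Regions linked to 1 gene alone gave 0 lower in Stage2 against Stage1 and 6 lower in iPSC against MEF. The gene span without a flank gave 3 higher and 0 lower in Stage2 against Stage1, with Foxq1 at 2.00 in Stage1 against MEF and Foxh1 at 0.33 in iPSC against MEF. A flank of 50 kb gave 14 lower in Stage1 against MEF, 4 lower in Stage2 against Stage1, and 5 higher and 2 lower in iPSC against Stage2; signs changed for Foxm1 (0.17), Foxf1 (-0.30) and Foxf2 (-0.16) in Stage1 against MEF, for Foxd3 in Stage2 against Stage1 (-0.057) and iPSC against Stage2 (-0.028), and for Foxa3 (0.051), Foxm1 (0.19) and Foxf1 (-0.26) in iPSC against MEF. Libraries thinned to equal depth, an alternative chosen after seeing the data, gave 6 lower in iPSC against MEF and Foxa3 at 0.085.

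Leaving out 1 library gave, for genes higher and lower, 14 to 19 and 5 to 9 in Stage1 against MEF, 3 to 6 and 1 to 2 in Stage2 against Stage1, 1 to 3 and 0 in iPSC against Stage2, and 20 to 22 and 10 to 12 in iPSC against MEF. For regions the ranges were 81 to 86 and 58 to 68, 3 to 6 and 3 to 9, 0 to 1 and 0 to 2, and 90 to 95 and 71 to 77. Members near 0 ranged over both signs: in Stage1 against MEF Foxf1 (-0.025 to 0.127), Foxq1 (-0.098 to 0.131), Foxf2 (-0.231 to 0.142) and Foxo1 (-0.032 to 0.232), and in iPSC against MEF Foxa3 (-0.070 to 0.031), Foxm1 (-0.166 to 0.073) and Foxf1 (-0.037 to 0.629). Foxq1 in Stage1 against MEF also turned without the filter (0.00040), with DESeq2 (0.0046) and with 2 groups alone (0.0093), and Foxa3 in iPSC against MEF without the filter (0.00090) and with 2 groups alone (0.0055).

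Replicate numbers did not pair the samples: same-numbered libraries had correlations of -0.105 to 0.107 between their deviations. With the number as a block, gene counts were as without it, 18 and 7, 6 and 1, 2 and 0, and 22 and 11, regions were 82 and 59, 7 and 7, 1 and 3, and 90 and 69, and Foxq1 in Stage1 against MEF changed sign (0.0053). Depth limits low regions, as 1034936 to 6261903 reads lay in regions.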
